A study of Mus musculus with 30 samples.

Results

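Cytosolic ribosomal protein genes were followed through all 3 mRNA sequencing experiments of the series. They were chosen by symbol alone: names that begin with Rpl or Rps and a number, the acidic stalk genes Rplp0, Rplp1 and Rplp2, and Rpsa, with processed pseudogene copies named "-ps" left out. The rule found 79 genes among 13456 listed in at least 1 deposited table, 33 of the small (40S) subunit and 46 of the large (60S) subunit, on 19 chromosomes. All 7 tables held 77 of them. The colon table and the 3 colonocyte tables held 78 each, and the 3 colonoid tables held 77. Rps4l, which GENCODE annotates as a transcribed processed pseudogene, was listed for colon only, and Rps27 for colonocytes only. The other 78 members are annotated as protein-coding. Rpl26, Rpl30 and Rpl34 were in no table used here.

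The first experiment compared colon epithelium of Smad4ΔLrig1 mice (Smad4 knockout, with a deletion that the name ties to Lrig1, a gene of intestinal stem cells) with that of Smad4+ control mice, both C57BL/6J. Smad4 is the signal transducer that the TGFB and BMP pathways share. The second experiment took cultured colonocytes whose label reads IMCfl/fl Smad4+, given TNF with TGFB1 and BMP2, TGFB1 with BMP2, TNF, or no ligand. Their doses and treatment times could not be taken from the labels. The third used colonoids, which are organoids of colon epithelium. There were 3 lines, named L42, L43 and L46, and each was given TNF (100 ng/mL) with TGFB1 (3 ng/mL) and BMP2 (10 ng/mL), TGFB1 with BMP2 or TNF at the same doses, or vehicle. Each of the 10 groups had 3 libraries, which the series design calls biological replicates. The labels do not say what separates the colonocyte replicates, so p-values there measure only the spread between these libraries.

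A ribosome joins a small subunit, which decodes the mRNA, to a large subunit, which forms peptide bonds. Its proteins are made in nearly equal numbers and assembled in the nucleolus, and mRNAs of ribosomal proteins are among the most abundant in dividing cells. Most of these mRNAs start with a C followed by a run of pyrimidines, the 5′ terminal oligopyrimidine (TOP) motif, through which mTORC1 signalling controls their translation, while MYC is known to raise their transcription. In the colon, cells divide in the lower crypt and stop dividing as they differentiate towards the surface.

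The start regions of 8 members are shown, picked for the size of their changes. Rplp2, Rps18, Rps28 and Rpl22l1 were among the large changes in the knockout, and Rpl4 and Rpl39 were among the smallest changes there. Rps2 and Rpl37a were near opposite ends in colonoids. Each sequence is from RefSeq on GRCm38.p6 (mm10), runs 5′ to 3′ on the strand of the gene, and covers 30 bases before and 20 bases from the annotated start. Capitals mark the longest run of C and T that begins with C within 20 bases of the start, where it has at least 6 bases. Of equally long runs only the first is marked. In Rpl39 another run of 8 bases, which lies after the start, is therefore left in lower case. Rplp2 lies at chr7:141447621-141447670 (plus strand), Rps18 at chr17:33955646-33955695 (minus), Rps28 at chr17:33824543-33824592 (minus) and Rpl22l1 at chr3:28805478-28805527 (plus). Rpl4 lies at chr9:64173357-64173406 (plus), Rpl39 at chrX:37085203-37085252 (minus), Rps2 at chr17:24720033-24720082 (plus) and Rpl37a at chr1:72711230-72711279 (plus).
Rplp2: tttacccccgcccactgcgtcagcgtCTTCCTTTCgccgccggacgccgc
Rps18: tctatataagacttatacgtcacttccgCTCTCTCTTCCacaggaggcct
Rps28: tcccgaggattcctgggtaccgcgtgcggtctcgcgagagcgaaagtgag
Rpl22l1: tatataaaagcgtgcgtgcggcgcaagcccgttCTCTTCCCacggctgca
Rpl4: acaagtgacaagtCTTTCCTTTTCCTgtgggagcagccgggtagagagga
Rpl39: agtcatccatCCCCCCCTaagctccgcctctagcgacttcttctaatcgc
Rps2: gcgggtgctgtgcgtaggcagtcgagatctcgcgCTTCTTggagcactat
Rpl37a: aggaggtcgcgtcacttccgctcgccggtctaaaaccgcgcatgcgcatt

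RefSeq start regions were found for 59 of the 79 members. A C/T run of at least 6 bases that begins with C was present in 36 of the 59 (61.0%), against 29.1% of 8802 other genes of the colon table and 29.4% of all 27025 regions. The run was searched on the strand of the gene only. Motifs in the 250 bases before the start were searched on both strands. The ETS-type motif CCGGAAG was in 30.5% of the members, against 14.5% of the other listed genes and 7.07% of all regions. The GC box GGGCGG was in 50.8% of the members, 60.1% of the other listed genes and 33.0% of all regions. TATAAA stood in 6.78% of the members and in 6.35% of the other listed genes. These matches describe letters and are not binding sites. Rplp2 and Rps18 hold runs of 9 and 11 bases that cross the annotated start, while Rps28, also among the large changes, holds no run of 6. Rpl4, with nearly the same level in both colon groups, holds one of 13 that lies wholly before the start. A run within 20 bases of the start, on either side, was therefore present at both ends of the knockout change. Over the members with a start region, the median knockout change was -0.63 for the 35 with a run and -0.55 for the 23 without, and the median change with TGFB1 and BMP2 in colonoids was -0.49 for the 35 and -0.40 for the 23.

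The deposited values are CPM, read counts relative to library size, scaled to an effective library size within each table. Depth, as reads recovered from these values, ranged from 23.2 to 28.6 M over the colon libraries, from 21.6 to 42.9 M over the colonocyte libraries and from 42.2 to 61.7 M over the colonoid libraries. Fold changes are differences of log2(CPM + 1), tested with limma within the 6 libraries of a table and adjusted by Benjamini-Hochberg over all its genes, and a gene is called at an adjusted p under 0.05. Every listed member had a mean of at least 1 CPM and was tested. The colon libraries listed all 10 markers of colonic epithelium and none of the 5 endothelial or 4 erythroid markers, and the colonoid libraries listed all 10 epithelial markers too. The cultured colonocytes go against their label in this check: Epcam, Krt20, Cdx1, Cdx2, Vil1 and Lgals4 were not listed, the 4 epithelial markers that were listed in the TNF table summed to 41.2 to 49.9 CPM with TNF and 35.5 to 48.1 CPM in control, and 8 of 10 fibroblast and muscle markers summed to 3975 to 4176 CPM with TNF and 4018 to 4336 CPM in control. They are called colonocytes below only as the name of the culture. Since these are bulk libraries, fewer cells of a type and less RNA per cell cannot be told apart.

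Ribosomal protein genes took a smaller share of the reads in Smad4 knockout colon and in colonoids given TGFB1 and BMP2, and nearly the same share in every colonocyte group. In knockout epithelium the members summed to 3.76%, 3.80% and 4.44% of the listed reads, against 5.47%, 6.07% and 6.07% in control epithelium (4.00 ± 0.382% and 5.87 ± 0.347%, SD, n = 3 each). All knockout libraries lay below all controls. In colonoids of the lines L42, L43 and L46, in that order, the share was 3.96%, 3.50% and 5.48% with TGFB1 and BMP2, against 6.74%, 7.06% and 7.17% with vehicle. With all 3 ligands it was 3.58%, 3.57% and 5.79%, against 6.47%, 6.91% and 6.95% with TNF alone. The line L46 had the highest share in both groups given TGFB1 and BMP2. The 12 colonocyte libraries ranged from 3.70% to 4.09%, and their groups overlapped.

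**Figure D1:**
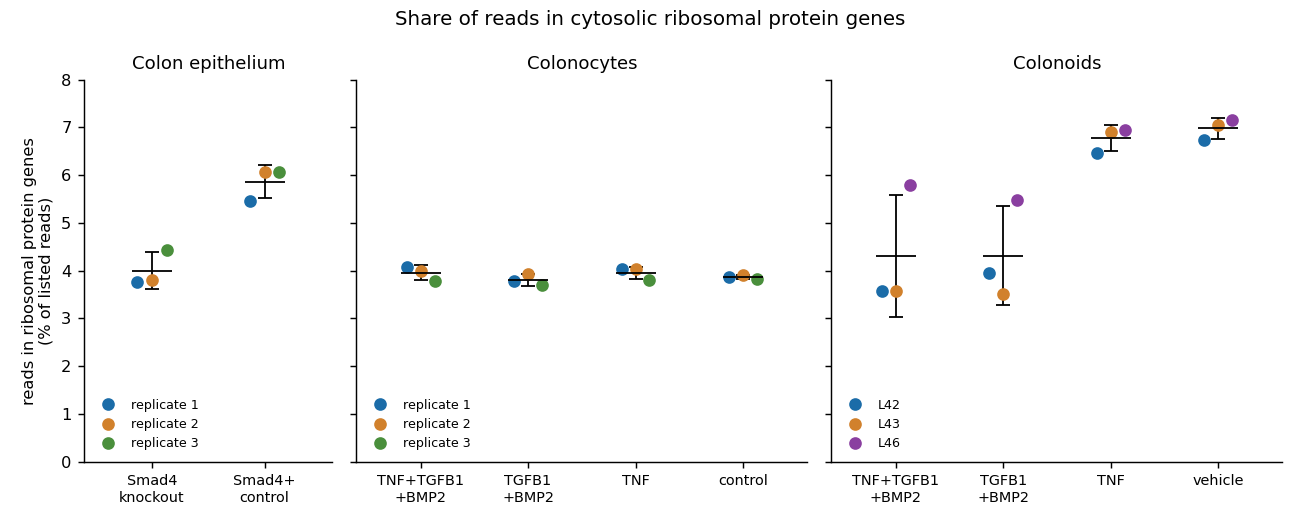
Share of listed reads in cytosolic ribosomal protein genes (%, vertical axis) for each library (points, coloured by replicate number or colonoid line), with the mean and SD of the 3 libraries of each group (bars). Knockout colon libraries lie between 3.76% and 4.44%, below the controls at 5.47% to 6.07%, and the L46 colonoids stand above L42 and L43 in both groups given TGFB1 and BMP2.

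In control colon the median member stood at 748 CPM, and Rplp0, the protein that anchors the stalk, was highest at 2144 CPM. In vehicle colonoids the median was 766 CPM, with Rplp0 highest at 2255 CPM and Rpl22l1 lowest at 114 CPM. Control colonocytes had a lower median of 353 CPM, with Rpsa, the laminin receptor homologue of the 40S subunit, highest at 2189 CPM and Rps27 lowest at 2.49 CPM. Per kilobase of transcript, Rpl41, which encodes one of the shortest proteins known, led in control colon at 2387 CPM per kb, followed by the stalk gene Rplp1 at 2206 and Rps29 at 1858. Per kilobase, Rplp1 led in control colonocytes at 2028 CPM per kb, and Rpl41 led in vehicle colonoids at 2428. Up to 24 "-ps" copies of 1 member are annotated and 58 of the 79 members have at least 1. The notes do not say how reads shared with such copies were counted, so the level of a single member is uncertain.

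Smad4 was 47.8, 59.2 and 46.1 CPM in the knockout libraries, against 132, 148 and 152 CPM in control, a log2 change of -1.49. Of the 78 ribosomal protein genes tested in the colon, 60 were lower and 0 were higher in the knockout (76.9%, limma with Benjamini-Hochberg adjustment), where 39.7% of all tested genes were called, 19.8% higher and 19.9% lower. The median change of the members was -0.66 on the log2 scale, beside 0.00 for all genes, and single members ranged from -1.51 to 0.04. In 64 members every knockout library lay below every control library, as it did in 25.2% of all genes. The authors' deposited table also held 60 members lower and 0 higher at a false discovery rate under 0.05, against 20.3% and 20.2% of all its genes. Replicates are not paired here. Against the mean of the controls the median member stood at -0.77, -0.75 and -0.44 on the log2 scale in the 3 knockout libraries, so the third was nearer to the controls.

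**Figure D2:**
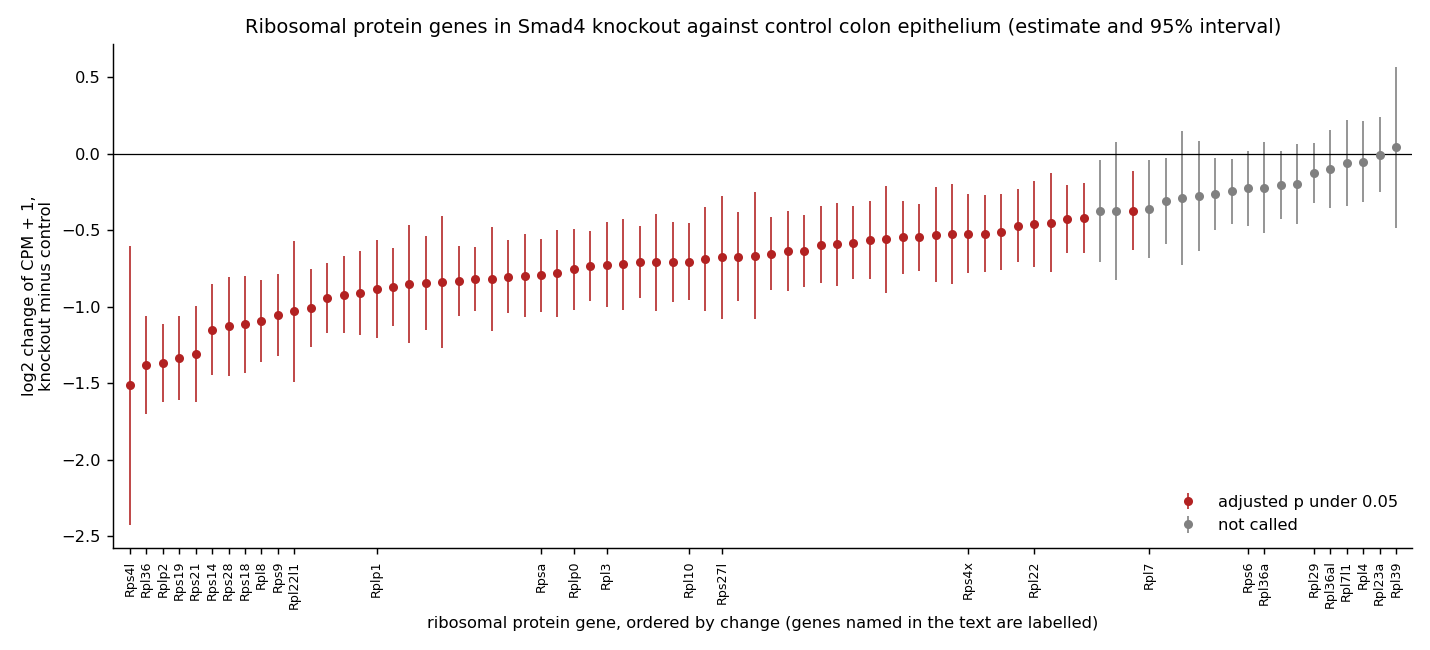
Log2 change of CPM + 1, Smad4 knockout minus control colon epithelium (vertical axis), for the 78 listed ribosomal protein genes in order of change (horizontal axis, with the genes named in the text labelled), with 95% intervals from limma. The 60 called members (red) lie below 0, and the members nearest to 0, among them Rpl4, Rpl23a and Rpl39, are not called (grey).

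Both subunits were affected. Of the 40S members 27 of 32 were lower (median change -0.72), and of the 60S members 33 of 46 (median -0.58). The largest fall with a level above 50 CPM was in Rpl36, a 60S protein, at 144, 99.1 and 133 CPM in knockout epithelium and 302, 365 and 309 CPM in control (log2 change -1.38, SE 0.14, adjusted p = 0.000208 by limma). Rps19, a 40S protein needed to mature the small subunit and known in humans as the gene most often mutated in Diamond-Blackfan anaemia, was 176, 173 and 228 CPM in knockouts and 446, 515 and 487 CPM in controls (log2 change -1.33). For both genes every knockout library lay below every control library.

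Other small-subunit genes behaved alike. Rps21 was 105, 110 and 154 CPM in knockouts and 281, 321 and 306 CPM in controls (log2 change -1.31, adjusted p = 0.000241 by limma). Rps28, at the mRNA exit channel, was 212, 136 and 159 CPM in knockouts and 371, 367 and 354 CPM in controls (-1.13). In none of these did the groups overlap. Rps14 of the 40S platform, whose loss is linked to the human 5q- syndrome, changed by -1.15, Rps18 of the 40S head by -1.11 and Rps9 by -1.05, all called. Among 60S genes, Rpl8, which lies near the peptidyl transferase centre, was 445, 341 and 418 CPM in knockouts and 836, 924 and 798 CPM in controls (-1.09, adjusted p = 0.000259 by limma). Rpsa, at 928, 825 and 910 CPM in knockouts and 1422, 1652 and 1545 CPM in controls, changed by -0.79.

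The stalk recruits elongation factors to the ribosome, and all 3 of its genes were lower. Rplp2 was 195, 157 and 193 CPM in knockout epithelium and 487, 492 and 424 CPM in control (log2 change -1.36, adjusted p = 9.43e-05 by limma). Rplp1 was 737, 485 and 592 CPM in knockouts and 1095, 1159 and 1048 CPM in controls (-0.88), and Rplp0 was 1225, 1182 and 1407 CPM in knockouts and 1966, 2323 and 2145 CPM in controls (-0.75). No stalk gene had overlapping groups. The call of Rplp1 was lost after correction for GC content and length (log2 change -0.28, adjusted p = 0.106 by limma).

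Members that were not called included some of the most abundant. Rpl4, which lines the peptide exit tunnel, was 1437, 1692 and 1722 CPM in knockouts and 1534, 1721 and 1762 CPM in controls (log2 change -0.05, 95% interval -0.31 to 0.21). Rpl23a, at the tunnel exit, was 737, 893 and 883 CPM in knockouts and 792, 843 and 880 CPM in controls (-0.00, interval -0.25 to 0.24). Rpl39, another tunnel protein, was 275, 463 and 582 CPM in knockouts and 350, 392 and 493 CPM in controls (0.04, interval -0.48 to 0.57). For each of the 3 genes the groups overlapped. Rps6, the substrate of S6 kinase that is used to read mTORC1 activity at the protein level, was 889, 963 and 1060 CPM in knockouts and 1042, 1174 and 1187 CPM in controls (-0.23, adjusted p = 0.131 by limma). Rpl3 changed by -0.73, Rpl10 by -0.70 and the X-linked Rps4x by -0.52, all called.

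The paralogs of ribosomal protein genes did not move as a block. Rpl22l1, which in mice is held down by its paralog Rpl22, was 28.9, 32.3 and 49.9 CPM in knockout epithelium and 61.0, 72.2 and 93.9 CPM in control (log2 change -1.03, SE 0.21, adjusted p = 0.00396 by limma), and the groups did not overlap. Rpl22 was 201, 230 and 274 CPM in knockouts and 294, 319 and 353 CPM in controls (-0.46, adjusted p = 0.0168), a call that was lost without any 1 of the knockout replicate 2, control replicate 2 or control replicate 3 (adjusted p 0.0535 to 0.0664 by limma). Rps27l, a p53 target, was 60.7, 83.7 and 111 CPM in knockouts and 125, 133 and 140 CPM in controls (-0.68, adjusted p = 0.0144), and its call was lost without knockout replicate 2 (adjusted p = 0.0532 by limma). Rpl36al changed by -0.10 and Rpl7l1 by -0.06, neither called, beside -0.22 for Rpl36a and -0.36 for Rpl7, not called either. Rps4l had 1.76, 1.49 and 2.04 CPM in knockouts and 2.39, 12.05 and 9.99 CPM in controls (-1.51, SE 0.41, adjusted p = 0.0156 by limma). Its first control library was close to the knockouts, and the call was lost without knockout replicate 2 (adjusted p = 0.0659 by limma) or control replicate 2 (adjusted p = 0.0526 by limma).

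The size of the change moved with base composition. Across the 78 members, Spearman's rho between the log2 change and the GC content of the transcript was -0.42, and across 11106 genes with a transcript model (95.7% of those tested) it was -0.49. With transcript length rho was 0.35 over the members and 0.44 over all genes. These are descriptions over genes that share libraries. Members have short transcripts, with a median of 834 bases against 2956 for the colon table, and an ordinary GC content (50.8% against 50.3%). Of the 26 members lowest in GC 15 were called lower (median change -0.54), of the middle 26 there were 21 (-0.58), and of the highest 26 there were 24 (-0.82). When a trend on GC content and length, fitted over genes outside the list, was taken out of each library, 41 members were lower and 2 were higher, where 15.8% of all genes were called in each direction, and the median change was -0.33. Rpl29 (log2 change 0.42, adjusted p = 0.00229 by limma) and Rpl23a (0.29) were the 2 higher ones, which were named after their values were seen. The call of Rps4l was lost (-0.95, adjusted p = 0.142 by limma). What part base composition and length play in the fall was not tested beyond this correction.

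**Figure D3:**
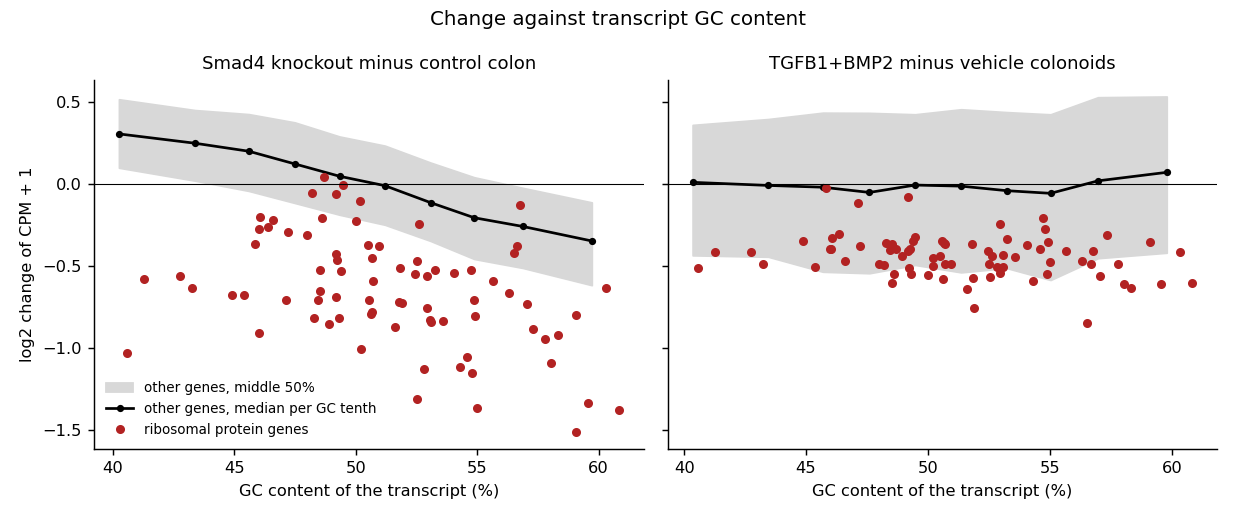
Log2 change of CPM + 1 (vertical axis) against transcript GC content in % (horizontal axis) for ribosomal protein genes (red points), with the median (line) and middle 50% (band) of other genes per bin of GC content (10 bins), in Smad4 knockout minus control colon (left) and in TGFB1 with BMP2 minus vehicle colonoids (right). The medians of other genes fall from low to high GC in the knockout panel and are nearly level in the colonoid panel, and the median member lies at -0.66 and -0.44.

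Other genes of ribosome production were followed in the knockout by list, with no test between lists. The ribosomal proteins that the symbol rule misses were lower in 3 of 3. Among them Fau, whose fusion product yields a 40S protein, changed by -0.94, and Gnb2l1, the 40S scaffold also named RACK1, by -0.84. Of 77 mitochondrial ribosomal protein genes, which serve the separate ribosome of mitochondria, 43 were lower and 1 was higher (median -0.39), with Mrpl14 at -1.16. Of 74 ribosome biogenesis factors, which process ribosomal RNA and assemble subunits, 16 were higher and 7 were lower (median 0.21). Noc3l, a pre-60S factor, changed by 0.86, and Polr1c, a subunit of RNA polymerases I and III, by -0.86. Of 23 elongation factors and other TOP genes 2 were higher and 8 lower (median -0.25), among them Eef1b2 at -0.71 and Eef1d at -0.59, both lower. Of 28 initiation factors 5 were higher and 7 lower, of 24 MYC and mTORC1 regulators 5 and 5, and of 15 p53 targets 2 and 4, with the cell cycle inhibitor Cdkn1a at -1.27. Of all tested genes 19.8% were called higher and 19.9% lower. The share of biogenesis factors called higher was near this, as were the shares of initiation factors and regulators in both directions. These list values were not corrected for GC content and length.

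Markers of other cells and of cell state in the same libraries are given beside these counts. The 10 epithelial markers summed to 11238 to 13961 CPM in knockout libraries and 15054 to 15937 CPM in controls, and the 8 pan-leukocyte markers to 79.4 to 100 CPM in knockouts and 82.4 to 105 CPM in controls. Of 11 lymphocyte and plasma cell markers, 5 were listed, at 54.4 to 57.0 CPM in knockouts and 35.0 to 56.5 CPM in controls, and B cell genes such as Cd79a and Ms4a1 were not listed. The single listed fibroblast and muscle marker had 6.10 to 8.97 CPM in knockouts and 8.15 to 11.98 CPM in controls. Of 6 markers of differentiated colonocytes 1 was higher and 3 were lower (median change -0.55), with Ceacam1 at 0.65, Guca2a at -1.79, Car4 at -0.97 and Aqp8 at -0.90. Their sum was 5607 to 6074 CPM in knockouts and 5108 to 5204 CPM in controls, of which Ceacam1 alone averaged 4086 CPM in knockouts and 2605 CPM in controls. Of 20 proliferation genes 5 were higher and 1 lower (median 0.15), near the 19.8% of all genes called higher, and their sum was 2090 to 2125 CPM in knockouts and 1567 to 2196 CPM in controls, so the groups overlapped. The part of these markers in the fall of the ribosomal protein genes was not tested.

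TNF alone left the ribosomal protein genes of colonocytes within a narrow range. None of the 78 was called by limma with Benjamini-Hochberg adjustment (0 higher, 0 lower), where 6.28% of all genes were called, 4.61% higher and 1.67% lower. At an unadjusted p under 0.05 there were 14 members, and the authors' deposited table held 0 at a false discovery rate under 0.05, against 5.84% of all its genes higher and 2.95% lower. The median change was 0.07 and 76 of 78 estimates were above 0. Every TNF library lay above every control library in 23 members, against 13% of all genes, and in 0 members did it lie below, against 10.6%. Rps15a, at 152, 146 and 140 CPM with TNF and 134, 131 and 130 CPM in control, had a change of 0.15 (adjusted p = 0.0961 by limma). Rplp2 had 274, 275 and 246 CPM with TNF and 232, 251 and 230 CPM in control (0.16, adjusted p = 0.141 by limma). Its groups overlapped and those of Rps15a did not. Same-numbered colonocyte libraries deviated together here, and with the replicate number as a block 21 members were called, all higher, where 11.5% of all genes were called higher in that fit. In the same cells 4 of 74 biogenesis factors were higher and 0 lower, a share near that of all genes called higher. Of 24 MYC and mTORC1 regulators 2 were higher and 2 lower (median -0.03), with Myc at 0.67 and Mxd1 at -0.42.

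TGFB1 with BMP2 raised 2 of 78 members in colonocytes and lowered 0, where 30.2% of all genes were called, 15.9% higher and 14.3% lower. Every ligand library lay above every control library in 20 members, against 22.3% of all genes, and below in 1, against 21.2%. Rpl7l1, a paralog of Rpl7, was 81.1, 88.8 and 84.2 CPM with the ligands and 75.9, 71.5 and 72.2 CPM in control (log2 change 0.21, SE 0.06, adjusted p = 0.0125 by limma). Rps16 was 327, 336 and 315 CPM with the ligands and 302, 301 and 288 CPM in control (0.13, adjusted p = 0.0402 by limma). Neither gene had overlapping groups. With total reads as the only scaling both calls were lost. The median of all genes was then -0.09, and that of the members was -0.02 in place of 0.06. Relative to all genes the members then stood 0.06 higher. Leaving out the ligand replicate 2 or the control replicate 2 ended the call of Rpl7l1 (adjusted p 0.0568 and 0.0608 by limma), and leaving out any library but ligand replicate 3 ended that of Rps16 (0.0653 to 0.125). Without control replicate 3, 4 members were called. The authors' deposited table held 1 member higher, against 16.5% of all its genes.

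On top of TNF, TGFB1 with BMP2 raised 5 of 78 members, where 31.9% of all genes were called, 16.4% higher and 15.6% lower. In 22 members all libraries with the 3 ligands lay above those with TNF, against 22.9% of all genes. Rpl7l1 was again highest among them, at 86.5, 86.1 and 87.9 CPM with all 3 ligands and 71.3, 74.9 and 78.3 CPM with TNF (log2 change 0.21, adjusted p = 0.00640 by limma). Among the others Rpl37 changed by 0.16, Rpl9 by 0.13 and Rps9 by 0.11. The count was 33, all higher, with the replicate block, where 21.9% of all genes were called higher. It was 22 without the replicate 3 of all 3 ligands, 2 or 3 without any other single library, and 0 with total reads as the only scaling. The authors' deposited table held 6 members higher, against 17% of all its genes. On top of TNF, 13 of 28 initiation factors were higher and 1 was lower, and 16 of 74 biogenesis factors were higher and 0 lower. Without TNF, 16 of 28 initiation factors and 14 of 74 biogenesis factors were higher and 0 of either lower, and the share of the biogenesis factors was near that of all genes called higher. Eif6, a factor that keeps free 60S subunits apart from 40S subunits, changed by 0.49 on top of TNF and by 0.58 without it.

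The lowest members of the colonocytes showed no call. Rps27 had 2.19, 2.37 and 2.11 CPM with TGFB1 and BMP2 and 2.42, 2.60 and 2.47 CPM in control (log2 change -0.12, adjusted p = 0.509 by limma). Rpl22l1 had 4.85, 5.13 and 4.38 CPM with the ligands and 4.60, 4.81 and 5.87 CPM in control (-0.07, adjusted p = 0.690 by limma). In vehicle colonoids Rpl22l1 stood at 94.5 to 127 CPM, a level read from a table normalized separately.

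**Figure D4:**
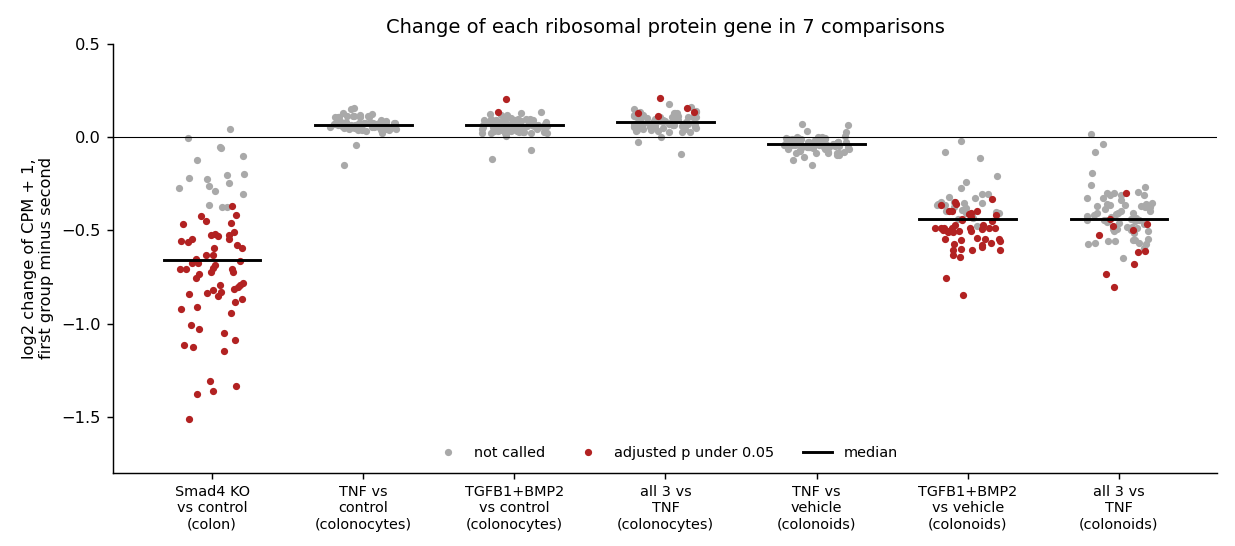
Log2 change of CPM + 1, first group minus second (vertical axis), of each listed ribosomal protein gene in the 7 deposited comparisons (horizontal axis), with called genes in red, other genes in grey and the median as a bar. The medians are -0.66 in the knockout, 0.06 to 0.08 in the 3 colonocyte comparisons, -0.04 for TNF in colonoids and -0.44 in both colonoid comparisons of TGFB1 with BMP2.

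In colonoids, TNF alone moved no member past the threshold. None of 77 was called by limma (0 higher, 0 lower), 0 passed at an unadjusted p under 0.05, and the authors' deposited table held 0, against 0.702% of all its genes higher and 0.0513% lower. Of all genes 0.137% were called, 0.12% higher and 0.0171% lower. In 1 member all TNF libraries lay below all vehicle libraries, against 2.99% of all genes, and in 0 above, against 4.62%. The median change was -0.04 and 70 of 77 estimates were below 0. This fit did not use the pairing by line, although libraries of the same line deviated together (correlations 0.739, 0.795 and 0.887). The largest was in Rps26, at 430, 531 and 521 CPM with TNF and 537, 518 and 584 CPM with vehicle (log2 change -0.15, 95% interval -0.39 to 0.08). Rplp0 stood at 2076, 2527 and 2683 CPM with TNF and 2336, 2369 and 2719 CPM with vehicle. In both genes the groups overlapped.

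TGFB1 with BMP2 lowered ribosomal protein genes in colonoids. Of 77 members 48 were lower and 0 were higher (62.3%, limma with Benjamini-Hochberg adjustment), where 56.7% of all genes were called, 28% higher and 28.7% lower. The median change was -0.44, beside -0.02 for all genes, and members ranged from -0.85 to -0.02. Every library given the ligands lay below every vehicle library in 63 members, against 34.5% of all genes. The 40S genes were called lower in 23 of 31 (median -0.48) and the 60S genes in 25 of 46 (median -0.43). The authors' deposited table held 37 members lower and 0 higher at a false discovery rate under 0.05, against 22% and 22.3% of all its genes. The limma fit did not use the pairing by line, although libraries of the same line deviated together (correlations 0.586, 0.432 and 0.308). The count of members called with the replicate block is not given here.

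Rps2, at the mRNA entry of the 40S subunit, had the largest change. It was 930, 909 and 1538 CPM in the lines L42, L43 and L46 with TGFB1 and BMP2 and 1810, 1931 and 2163 CPM with vehicle (log2 change -0.85, SE 0.23, adjusted p = 0.0183 by limma). Rpl3, a large protein that reaches the peptidyl transferase centre, was 835, 804 and 1236 CPM with the ligands and 1484, 1640 and 1649 CPM with vehicle (-0.76, adjusted p = 0.0140 by limma). In both genes the L46 library with the ligands stood well above those of L42 and L43, though still below every vehicle library. Rpl12 of the stalk base was 591, 545 and 861 CPM with the ligands and 951, 1070 and 1034 CPM with vehicle (-0.64). Rpl18 changed by -0.63, Rps19 and Rpl8 by -0.61, Rpl36 and Rpl27a by -0.60, Rps18 by -0.59 and Rpsa by -0.58, all called. Rps6 was 857, 761 and 1159 CPM with the ligands and 1241, 1371 and 1401 CPM with vehicle (-0.55, adjusted p = 0.0329 by limma).

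The stalk genes, all called in the knockout colon, were not called here. Rplp0 was 1772, 1712 and 2279 CPM with TGFB1 and BMP2 and 2109, 2176 and 2480 CPM with vehicle (log2 change -0.24, adjusted p = 0.245 by limma). Rplp1 was 597, 537 and 894 CPM with the ligands and 787, 717 and 964 CPM with vehicle (-0.31), and Rplp2 328, 298 and 476 CPM with the ligands and 480, 468 and 557 CPM with vehicle (-0.47, adjusted p = 0.0662 by limma). In all 3 the L46 library overlapped the vehicle range. Rplp2 was called with the replicate block (adjusted p = 0.0236 by limma). Rpl7, at 1540, 1364 and 1672 CPM with the ligands and 1488, 1580 and 1563 CPM with vehicle, had a change of -0.02, Rpl7l1 of -0.08 and Rpl37a of -0.11, with overlapping groups in each.

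Of the 4 listed paralogs 3 were lower. Rpl22l1 was 88.9, 74.1 and 74.2 CPM with TGFB1 and BMP2 and 119, 127 and 94.5 CPM with vehicle (log2 change -0.51, adjusted p = 0.0194 by limma), next to -0.40 for Rpl22. Rps27l was 106, 103 and 114 CPM with the ligands and 130, 149 and 134 CPM with vehicle (-0.35, SE 0.09, adjusted p = 0.0157 by limma). Rpl36al was 157, 154 and 192 CPM with the ligands and 217, 246 and 224 CPM with vehicle (-0.45), next to -0.47 for Rpl36a. In Rpl22l1 the L46 library with the ligands was as low as that of L43. All 3 calls were lost after correction for GC content and length. The corrected log2 change was -0.15 for Rpl22l1 (adjusted p = 0.233 by limma), -0.16 for Rpl36al (adjusted p = 0.200 by limma) and -0.01 for Rps27l (adjusted p = 0.939 by limma).

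The 3 lines differed in how far the members fell. Within a line, the median log2 ratio of ligand to vehicle was -0.44 in L42, -0.67 in L43 and -0.21 in L46, and under TNF it was -0.57, -0.66 and -0.08 in the same order. With TGFB1 and BMP2 alone, 76 of 77 members were lower in L42, 77 in L43 and 75 in L46. The descriptions of the L46 libraries carry another prefix than those of L42 and L43, so line and prefix cannot be told apart. Without the L46 library given the ligands 74 members were called, and without any other single library 1 to 10 were (10, 2 and 7 without the vehicle libraries of L42, L43 and L46, and 1 and 7 without the ligand libraries of L42 and L43). Leaving out the whole line L46 gave 72 calls, and leaving out L42 or L43 gave 0 each. Shares of all genes called in these reduced fits are not given here. The counts therefore show only how the calls of the members depend on the libraries kept.

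**Figure D5:**
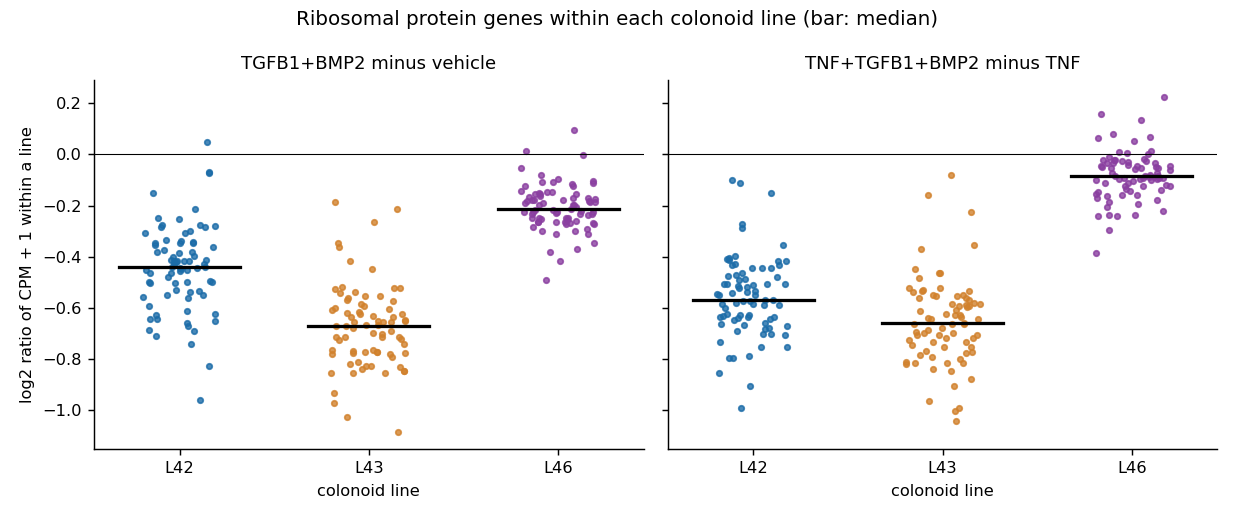
Log2 ratio of CPM + 1 within each colonoid line (vertical axis) for each ribosomal protein gene (points) and their median (bar), for TGFB1 with BMP2 minus vehicle (left) and all 3 ligands minus TNF (right), by line (horizontal axis). Medians are -0.44, -0.67 and -0.21 on the left and -0.57, -0.66 and -0.08 on the right, with L46 nearest to 0 in both.

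Proliferation genes ran in the same direction in the same libraries. Summed over 20 such genes, the level in L42, L43 and L46 was 579, 521 and 1940 CPM with TGFB1 and BMP2, against 3449, 3806 and 4220 CPM with vehicle, and all 20 were called lower. Crypt base and stem markers summed to 203, 194 and 298 CPM with the ligands and 852, 757 and 732 CPM with vehicle, and markers of differentiated colonocytes to 4775, 5962 and 2846 CPM with the ligands and 1811, 1751 and 1635 CPM with vehicle. Of those 6 markers 2 were higher, Krt20 (log2 change 3.14) and Ceacam1 (1.20), and 2 were lower, Slc26a3 (-2.85) and Guca2a (-1.87), with a median of -0.44. On all 3 sums L46 with the ligands stood closer to its vehicle library than L42 and L43 did to theirs. The part of the cells that divide in the level of the ribosomal protein genes was not tested.

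Of the other genes of ribosome production, those for biogenesis and mitochondrial ribosomes were mostly lower in colonoids. Of 74 biogenesis factors 56 were lower and 2 higher (median change -0.63), and they summed to 3423, 3600 and 4544 CPM with TGFB1 and BMP2 and 5822, 6409 and 5874 CPM with vehicle. In the knockout colon the median of the same list was above 0, without correction for GC content and length, and its share called higher was near that of all genes. Of 77 mitochondrial ribosomal protein genes 50 were lower and 1 was higher (median -0.41), and of 23 elongation factors and other TOP genes 12 were lower and 1 was higher. The 3 ribosomal proteins that the symbol rule misses were not called (median -0.25). Initiation factors went both ways, with 7 of 28 higher and 3 lower, as did 25 MYC and mTORC1 regulators, with 8 higher and 6 lower. Of all genes in this comparison 28% were called higher and 28.7% lower. Among the regulators the MYC antagonist Mxd1 changed by 2.29 and Mycn by 2.86, both higher.

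Scaling by total reads changed the size of the colonoid result but not its direction, and correction for GC content and length made most changes smaller. With total reads as the only scaling the median of all genes shifted by -0.28, 75 members were lower (against 43.2% of all genes) and their median was -0.72, while relative to all genes it was -0.44. After the correction for GC content and length, 7 members remained among the calls, named after their values were seen: Rps2 (log2 change -0.73), Rpl3 (-0.58), Rps15a (-0.54), Rpl8 (-0.50), Rps19 (-0.50), Rpl11 (-0.34) and Rps25 (-0.29). The share of all genes called with this correction is not given here, so the 7 cannot be set beside it. With the correction Rpl7 (0.23), Rpl37a (0.20) and Rpl7l1 (0.05) lay above 0, none of them called, and the other members stayed below 0. Over the members, rho with GC content was -0.22, and over all genes it was 0.03.

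Under TNF the same ligands lowered 11 of 77 members and raised 0 (14.3%, limma), where 54.1% of all genes were called, 26.4% higher and 27.7% lower. The median change was again -0.44, and 26 members had no overlap, against 34.1% of all genes. Rps2 was 862, 961 and 1576 CPM in L42, L43 and L46 with all 3 ligands and 1712, 1977 and 2058 CPM with TNF (log2 change -0.81, adjusted p = 0.0283 by limma). Rpl3 was 783, 770 and 1314 CPM with all 3 ligands and 1469, 1543 and 1613 CPM with TNF (-0.73), and Rpl22l1 was 74.0, 62.4 and 76.7 CPM with all 3 ligands and 125, 112 and 90.8 CPM with TNF (-0.61, adjusted p = 0.0130 by limma). The remaining calls were Rpl12, Rpl27a, Rpl36al, Rps25, Rpl35a, Rpl11, Rpl9 and Rps27l. After correction for GC content and length 2 members were called, Rps2 and Rpl3, and the change of Rps27l was 0.0572 in place of -0.30. The share of all genes called in that corrected fit is not given here. In L46 the members stood close to their TNF level, and 11 of 77 were above it. With the replicate block, which keeps each line together, 25 members were called lower, against 31.2% of all genes. Without the L46 library given all 3 ligands 74 were called, without any other single library 1, and with total reads as the only scaling 72. The authors' deposited table held 21 members lower at a false discovery rate under 0.05, against 21.7% of all its genes.

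Whether TNF changed the response to TGFB1 and BMP2 was tested in 1 model over the 12 libraries of each culture. No member was called for this difference in colonocytes (0 of 78, limma with Benjamini-Hochberg adjustment, 0 at an unadjusted p under 0.05, with 0.00875% of all genes called) or in colonoids (0 of 77, 0 at an unadjusted p under 0.05, with 0% of all genes called). The estimates for single members lay between -0.09 and 0.22 in colonocytes and between -0.08 and 0.11 in colonoids. These fits did not use the pairing of colonoids by line. With the replicate block 0 members were called in either culture and 0 passed at an unadjusted p under 0.05, where 0.262% of all genes were called in colonocytes and 0% in colonoids. The 95% intervals of single members in that fit reached from -0.35 to 0.59 in colonocytes and from -0.56 to 0.57 in colonoids. A p that misses the threshold does not show that the response was the same with and without TNF.

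The response to TGFB1 and BMP2 did differ between the cultures. In 1 model over 24 libraries, the change in colonoids minus that in colonocytes was called in 57 of 77 members, all lower in colonoids, where 57.5% of all genes were called and 29.2% were called lower. The median difference was -0.51, beside -0.00 for all genes, and all 77 estimates were below 0. Rps2 had the largest difference, at -0.91 (SE 0.26, adjusted p = 0.00587 by limma), and Rpl3 followed at -0.84. Rplp0 (-0.33, adjusted p = 0.152 by limma) and Rpl7 (-0.08, adjusted p = 0.574 by limma) were not called. Doses for the colonocytes are not given, so the cultures may differ in dose and time as well as in cells. The count was 72 without the L46 library given the ligands, 26 and 18 without those of L42 and L43, and 34 to 49 without any other single library, of which the colonocyte ligand replicate 2 (34) and the L46 vehicle library (35) moved it by over 1.5 times. The fit with 57 calls did not use the pairing of colonoids by line. With the replicate block 74 of 77 members were called, where 68.3% of all genes were called.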

How the data were processed

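Gene expression of 30 libraries was measured by mRNA sequencing (TruSeq Stranded mRNA, per the labels' protocols). The deposited signal values are CPM that the authors scaled to an effective library size in each table, with their own log2 fold changes and FDR (p-value adjusted for multiple tests) beside them, per the file headers. The submitters' processing notes name mm10, TopHat2 2.1.0, HTSeq 0.5.4p5, edgeR 3.4.2, SAMtools 1.3.1, bcl2fastq 2.16 and CASAVA. Their roles, the strand setting and the treatment of reads that match several genes are not stated there.

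Each comparison was fitted over the 6 libraries of its table with limma 3.58.1 (R 4.3.3, mean-variance trend) on log2(CPM + 1), over genes with a mean of at least 1 CPM, with Benjamini-Hochberg adjusted p under 0.05 as a call. Differences between effects were fitted over reads recovered from the CPM steps and scaled across tables by trimmed means. Transcript GC content and length came from GENCODE M21, and start regions from RefSeq. The scaling and the test without a block were tried on reads simulated for the knockout and for TGFB1 with BMP2 in colonoids. Those reads held no GC, length or line effect. The blocked, joined and corrected fits were not simulated. Count tests had been planned and were not run, although whole reads could be recovered from the CPM. No library was a duplicate of another in its group: the chi-square per gene between replicates was 4.29 or more. Libraries of different groups were not compared in this way.

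The members and gene lists were chosen with earlier results of these data known. In each comparison the named members were up to 10 per direction with the largest changes among those called (the 3 largest where fewer than 3 were called), with the stalk genes, Rpsa, Rps6, Rpl3, Rpl10, Rps4x and the paralog pairs. Rpl4, Rpl23a, Rpl29 and Rpl37a were named after their values were seen. A few genes that meet these rules are not reported here. Colonoid libraries are paired by line, which only the fits with the replicate block used. Same-numbered colonocyte libraries deviated together for TNF (correlations 0.270, 0.274 and 0.522) and for TGFB1 with BMP2 under TNF (0.170, 0.163 and 0.411), so the blocked counts are given beside those of the fits without the block. For TGFB1 with BMP2 alone the correlations were 0.246, 0.048 and 0.251, and the blocked count is given in the closing section. Alternatives were pseudocount, filter, scaling, block, each library or line left out and, added after seeing the data, correction for GC content and length.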

Additional observations from a re-analysis of the deposited data

Results flagged for a closer look

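The change of ribosomal protein genes with TGFB1 and BMP2 differed between colonoids and colonocytes. A test of the difference itself (limma over 24 libraries, Benjamini-Hochberg adjustment) called 57 of 77 members, all lower in colonoids. Of all genes 57.5% were called in that test, 29.2% lower. The median difference of the members was -0.51 on the log2 scale. The paralogs Rpl22l1 (difference -0.44, adjusted p = 0.0454 by limma) and Rpl7l1 (-0.29, adjusted p = 0.0265) were among those called. That test did not use the pairing of colonoids by line. With the replicate block 74 of 77 members and 68.3% of all genes were called. Dose, time and the kind of cell differ or may differ between the cultures, and their parts cannot be told apart.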

How the results depend on the processing

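Here and above, counts without a library or line stand without the share of all genes called in the same fit. Most counts below under other settings do too. They show how the calls of the members move with a setting, not how the members compare with other genes. In the knockout, leaving out 1 library gave 50 to 67 called members and medians of -0.75 to -0.59. The median was -0.33 after correction for GC content and length, with or without the replicate block, and Rpl36al was then at 0.23 with the block. Same-numbered colon libraries did not deviate together (correlations 0.066, 0.123 and -0.006), and the replicate block gave 64 calls.

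For TNF in colonocytes the replicate block gave 21 calls, and 8 with the GC and length correction, and leaving out 1 library gave 0 to 2. For TGFB1 with BMP2 in colonocytes there were 5 with the replicate block, 17 with block and correction, and 0 to 4 without 1 library. Same-numbered libraries correlated at 0.246, 0.048 and 0.251 in that comparison. Total reads and total reads of genes outside the list gave 0 calls each, with medians of -0.0228 and -0.0237. Under TNF the same choices gave 33, 24 (10 with the correction alone), 2 to 22, and 0 and 0, with medians of -0.0019 and -0.002.

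In colonoids TGFB1 with BMP2 gave 7 calls with the correction, 17 with block and correction, 75 under both total-read scalings (medians -0.72 and -0.76) and 1 to 74 without 1 library (medians -0.58 to -0.33). Without the line L42 or L43 there were 0 calls each. Under TNF there were 2 with the correction, 25 with the block, 72 under both scalings, 1 to 74 without 1 library, 0 without L42, 0 without L43 and 72 without L46. Rps27l was at 0.0572 there with the correction, with or without the block. The difference between cultures gave 18 to 72 calls without 1 library, 21 without L42 and 10 without L43. The block changed no other count by over 1.5 times. The cause of these shifts was not tested. Count tests with edgeR or DESeq2 were not run. With 3 libraries a group and reads shared with pseudogene copies, small changes of single members are the least certain.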
